A study of Mus musculus with 2 samples.

Results

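The Pax genes encode transcription factors that bind DNA through a paired domain and direct the formation of organs in the embryo. Pax1 and Pax9 act in the sclerotome, from which the vertebrae form, and in the pharyngeal pouches. Pax2, Pax5 and Pax8 form a closely related group with roles in the kidney and the midbrain, in B lymphocytes, and in the thyroid and kidney. Pax3 and Pax7 act in the neural tube, the neural crest and the muscle lineage, and Pax6 acts in the eye, the brain and the endocrine pancreas. Methylation of cytosine in CpG dinucleotides is often low in the CpG islands at the starts of such developmental genes, also in cells that do not express them.

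DNA methylation was compared between mouse embryonic fibroblasts (MEFs) of the C57BL/6 strain that were wildtype (wt) or ESR2 -/- (βerko). ESR2 is the gene of oestrogen receptor β, a ligand-activated transcription factor, and the comparison asked how methylation differs when this receptor is missing. Both cell types were grown in the same medium, and genomic DNA of 3 batches per genotype was pooled into 1 library of reduced representation bisulfite sequencing (RRBS), which reads CpGs near the cutting sites of the enzyme MspI. The authors refer to the wt and βerko cells as cell lines, and whether the batches came from separate embryos is not stated. With 1 library per genotype no spread between cultures can be given. A genotype cannot be told apart from its library or its cell line.

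Positions covered in both libraries were assigned to a Pax gene if they lay in its annotated body or in the 2000 bp upstream of its most upstream start on the mouse assembly NCBIM37 (mm9). The 8 genes Pax1, Pax2, Pax3, Pax5, Pax6, Pax7, Pax8 and Pax9 held 1029 of the 826937 common positions, at 940 CpGs, and Pax4 was not analysed here. All 1029 positions were CpG cytosines in the reference, and a CpG read on both strands counted as 2 positions. Coverage was uneven, with 245 positions in Pax5, 219 in Pax2, 169 in Pax7, 152 in Pax6, 91 in Pax1, 72 in Pax3, 60 in Pax9 and 21 in Pax8. The read depth is known only at differentially methylated positions (DMPs, defined below), so other values carry an unknown counting error.

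The stretches with the largest decrease in methylation in Pax5, Pax7, Pax9 and Pax6 are shown because the values below are given CpG by CpG along them. A stretch is a run of at least 5 common positions with gaps of at most 100 bp. The sequences are from the plus strand of NCBIM37, with the CpGs that were covered in both libraries in capitals. Each holds 2 recognition words of MspI, CCGG. The Pax5 stretch lies in intron 5 at chr4:44677498-44677565, and the Pax7 stretch in intron 4 at chr4:139377200-139377257. The Pax9 stretch lies upstream of the gene at chr12:57791440-57791512, and the Pax6 stretch in intron 7 at chr2:105527346-105527446.
Pax5: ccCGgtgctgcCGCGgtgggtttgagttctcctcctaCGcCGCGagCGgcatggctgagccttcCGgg
Pax7: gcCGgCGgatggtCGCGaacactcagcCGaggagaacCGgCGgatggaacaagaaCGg
Pax9: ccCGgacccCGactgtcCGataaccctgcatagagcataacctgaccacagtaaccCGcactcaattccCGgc
Pax6: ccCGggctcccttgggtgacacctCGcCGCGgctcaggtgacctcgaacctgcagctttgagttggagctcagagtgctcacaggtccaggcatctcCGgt

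In the Pax5 stretch the plus-strand positions from 44677500 to 44677535 had 33.33, 26.67, 6.67 and 93.33 % methylation in wt MEFs and 14.29, 4.08, 10.20 and 29.17 % in βerko MEFs. The 5 minus-strand positions from 44677536 to 44677563 had 89.66, 60, 40, 96.55 and 100 % in wt and 42.57, 4.90, 9.80, 41.18 and 10.78 % in βerko MEFs. All but the position at 44677511 were lower in βerko MEFs, and adjacent CpGs differed widely in wt MEFs.

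In the Pax9 stretch wt methylation was 97.67, 64.29, 95.35, 68.63 and 60.38 % from the first to the last position, and βerko methylation was 25, 14.29, 17.86, 17.57 and 10.67 %. The ranges of the libraries did not overlap over these 5 CpGs. The stretch was picked as the largest fall in Pax9, so this separation largely follows from the selection. Positions on a fragment share reads, so the values in a stretch are not independent of each other.

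Averaged over positions, methylation was lower in βerko than in wt MEFs in 6 of the 8 Pax genes and higher in Pax2 and Pax8, but with each 200 bp bin of a gene given the same weight only Pax6, Pax7 and Pax9 were lower (-9.48, -7.81 and -11.9 points) and Pax1, Pax3 and Pax5 were near 0 (0.48, 1.41 and 0.0896 points). Of the 12272 annotated genes with at least 20 common positions 67.0 % were lower over positions, so the count of 6 is near the background. The largest decreases were in Pax9, from 49.99 ± 38.2 % to 34.4 ± 35.1 % (SD over 60 positions), and in Pax5, from 41.7 ± 32.2 % to 27.6 ± 32.7 % (SD, 245 positions). Pax6 changed from 47.9 ± 34.7 % to 35.5 ± 35.1 % (152 positions) and Pax7 from 33.4 ± 33.6 % to 22.0 ± 27.9 % (169 positions). These SDs describe the spread between positions and not between cultures.

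Pax1 averaged 50.4 ± 25.8 % in wt against 46.2 ± 28.8 % in βerko cells (91 positions). Pax3 had 41.4 ± 34.3 % and 40.9 ± 40.2 % (72 positions). In Pax2 the level was 23.9 ± 27.9 % in wt and 27.5 ± 32.8 % in βerko MEFs (219 positions), the lowest wt level of the 8 genes. Pax8 was highly methylated in both libraries, with 81.1 ± 24.3 % in wt and 84.8 ± 22.4 % in βerko MEFs over 21 positions.

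The median difference over the 8 genes, βerko minus wt, was -7.79 percentage points, with a range from -15.6 to 3.77. Over the 12272 genes the median was -0.52 points. The median wt level was 44.8 % over the 8 genes and 23.2 % over the 12272, so the starting levels were unlike. None of the 8 means fell or rose by 20 points or more, where 2.97 % of the 12272 genes fell and 0.171 % rose by that much. Over all 1029 Pax positions the mean was 39.5 % in wt and 32.0 % in βerko MEFs, a difference of -7.55 points, against 40.7 % and 38.8 % over all common positions.

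**Figure D1:**
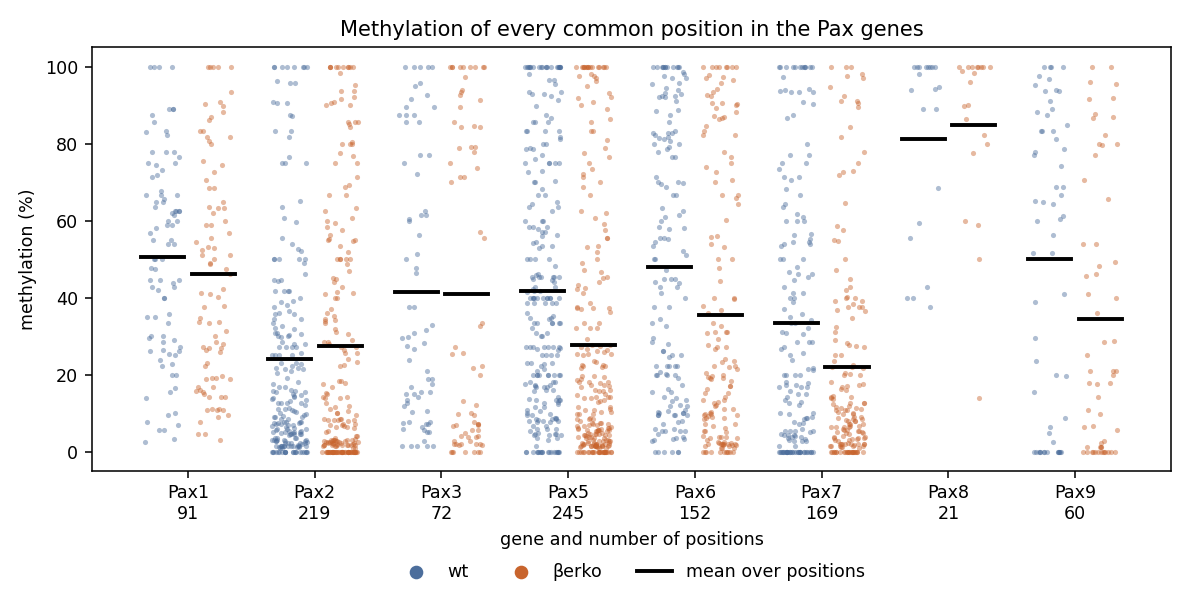
Methylation in per cent (y axis) of every common position in each of the 8 Pax genes (x axis, with the number of positions), in wt (blue) and βerko (orange) MEFs, with a black bar at the mean over positions. The mean over positions was lower in βerko MEFs in 6 genes (in 3 with 200 bp bins weighted alike), and the values of both libraries spread over most of the scale in every gene but Pax8.

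Hereafter a position is said to have fallen or risen if methylation in βerko MEFs was at least 20 percentage points below or above that in wt MEFs. In the Pax genes 279 of 1029 positions fell (27.1 %) and 118 rose (11.5 %). Of all common positions 10.4 % fell and 6.81 % rose, so both shares were above the background. Wilson 95 % intervals of the Pax shares were 24.5 to 29.9 % and 9.66 to 13.6 %, and they cover the number of positions only. Pax positions and all common positions were not matched for wt level. In wt MEFs 38.3 % of Pax positions but 50.3 % of all were below 20 % and so could not fall. Between 20 and 80 % lay 43.5 and 17.2 %.

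Falls exceeded rises in 5 genes. In Pax5, 93 positions fell and 26 rose, in Pax7 52 and 12, in Pax6 49 and 7, in Pax1 29 and 21, and in Pax9 23 and 3. Pax9 had the highest share of fallen positions with 38.3 %, followed by Pax5 with 38.0 %, Pax6 with 32.2 %, Pax1 with 31.9 % and Pax7 with 30.8 %. The Wilson intervals of these 5 shares overlapped. In Pax2 rises exceeded falls, 36 against 22, and Pax8 had 4 rises and 2 falls. Pax3 had 9 of each. Without Pax5, which held the most positions, 23.7 % of the remaining 784 positions fell and 11.7 % rose.

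Changes in both directions within the same gene were common in this family. At least 10 % of positions fell and at least 10 % rose in 4 of the 8 genes, a pattern seen in 7.72 % of the 12272 genes. Pax2, where 10.05 % fell, and Pax5, where 10.6 % rose, passed this limit narrowly. The pattern also occurred outside the family, as in the partner gene Six2 with 63 falls and 19 rises over 141 positions. At least 25 % of positions fell in 5 of the 8 genes, against 10.1 % of the 12272. Genes were not matched for wt level in either comparison. Pax1, a sclerotome factor, had the highest share of risen positions with 23.1 %, and its wt and βerko values were related more weakly than in any other member, with Pearson's r across positions of 0.34, against 0.68 over all Pax positions and 0.90 over all common positions. Positions are not independent replicates, and r depends on the spread of levels in the gene.

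**Figure D2:**
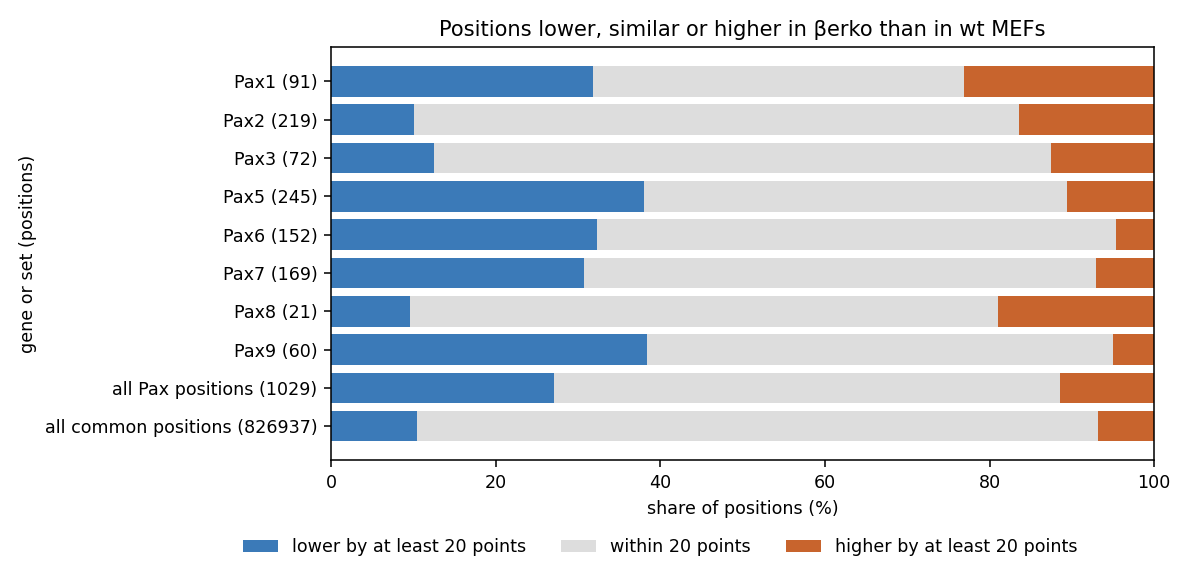
Share of positions in per cent (x axis) that were lower by at least 20 points (blue), within 20 points (grey) or higher by at least 20 points (orange) in βerko MEFs, for each Pax gene, all Pax positions and all common positions, with the number of positions in parentheses. The blue share was 27.1 % over the Pax genes and 10.4 % over all common positions.

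The Pax genes differed from the rest of the covered genome already in wt MEFs. Methylation between 20 and 80 % was found at 448 of 1029 Pax positions (43.5 %) in wt MEFs, against 17.2 % of all common positions. In Pax1 this intermediate class held 74.7 % of positions, and in Pax5 51.0 %. In βerko MEFs the share over the Pax genes was 30.4 %, against 15.1 % of all positions.

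Most intermediate positions that left the class became unmethylated. Of the 448 Pax positions between 20 and 80 % in wt MEFs, 192 (42.9 %) were below 20 % and 60 (13.4 %) above 80 % in βerko MEFs. Over all common positions these shares were 28.0 and 29.5 %. In Pax5, 74 of 125 intermediate positions were below 20 % in βerko MEFs and 14 above 80 %. In Pax1 the numbers were 20 and 11 of 68.

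Of the 187 Pax positions above 80 % in wt MEFs, 99 (52.9 %) remained above 80 %, where 80.5 % did so over all common positions. Of the 394 below 20 % in wt MEFs, 342 (86.8 %) remained below 20 %, against 95.2 % over all positions. Pax9 showed no position that left the unmethylated class, with 20 of 20 below 20 % in both libraries. In Pax2 108 of 130 were below 20 % in both.

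Promoters, taken as the 2000 bp upstream of the most upstream start, held 129 of the positions and gene bodies 900. The promoter of Pax2, a kidney and midbrain factor, was unmethylated in both libraries, with 4.32 ± 3.66 % in wt and 3.37 ± 5.24 % in βerko MEFs (30 positions). The promoter of its relative Pax5 had 24.1 ± 29.2 % and 14.6 ± 15.5 % (17 positions). No promoter position of Pax8 was covered.

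The promoter of Pax7, a factor of muscle stem cells, had 37.7 ± 24.5 % in wt and 16.0 ± 6.11 % in βerko MEFs over 8 positions. With a difference of -21.7 points it was the only promoter of the 6 with at least 5 positions that fell, and none rose. Its difference was -16.6 points from 1000 bp before to 500 bp after the start and -15.7 points around any annotated start, so the fall past 20 points is lost with either definition. Of the 8711 annotated promoters with at least 5 positions, 5.52 % fell and 0.585 % rose. Pax3 had 4 promoter positions, with means of 38.8 and 37.7 %.

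The promoter of Pax9 changed from 57.7 ± 31.3 % to 38.3 ± 31.2 % (24 positions) and that of Pax6 from 31.0 ± 29.7 % to 22.7 ± 28.5 % (35 positions). The promoter of Pax1 went the other way, from 34.5 ± 28.3 % in wt to 51.5 ± 23.8 % in βerko MEFs (11 positions), while its body went from 52.6 ± 24.9 % to 45.5 ± 29.5 % (80 positions). Taken from 1000 bp before to 500 bp after the start, the Pax1 promoter had 50.3 % in wt and 50.5 % in βerko MEFs over 20 positions, and the Pax9 promoter 65.6 and 59.0 % over 14.

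Gene bodies followed the means of the whole genes. The body of Pax6 changed from 53.0 ± 34.5 % to 39.3 ± 36.1 %, that of Pax5 from 43.1 ± 32.1 % to 28.6 ± 33.5 %, that of Pax9 from 44.9 ± 41.8 % to 31.9 ± 37.7 % and that of Pax7 from 33.2 ± 34.0 % to 22.3 ± 28.5 %. The body of Pax2 changed from 27.0 ± 28.8 % to 31.3 ± 33.7 %. In Pax9 the positions in exons of any transcript had 15.6 and 14.6 % (21 positions) and the other body positions 85.8 and 56.1 % (15 positions).

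The median difference was -8.88 points over the 6 promoters and -8.99 points over the 8 bodies of the Pax genes. Over all annotated promoters and bodies with at least 5 positions the medians were -0.19 and -0.37 points. The starting levels were unlike. The median wt level was 32.7 % over the Pax promoters and 1.67 % over all promoters, so most promoters had little methylation to lose. For bodies the medians were 44.0 and 34.7 %.

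**Figure D3:**
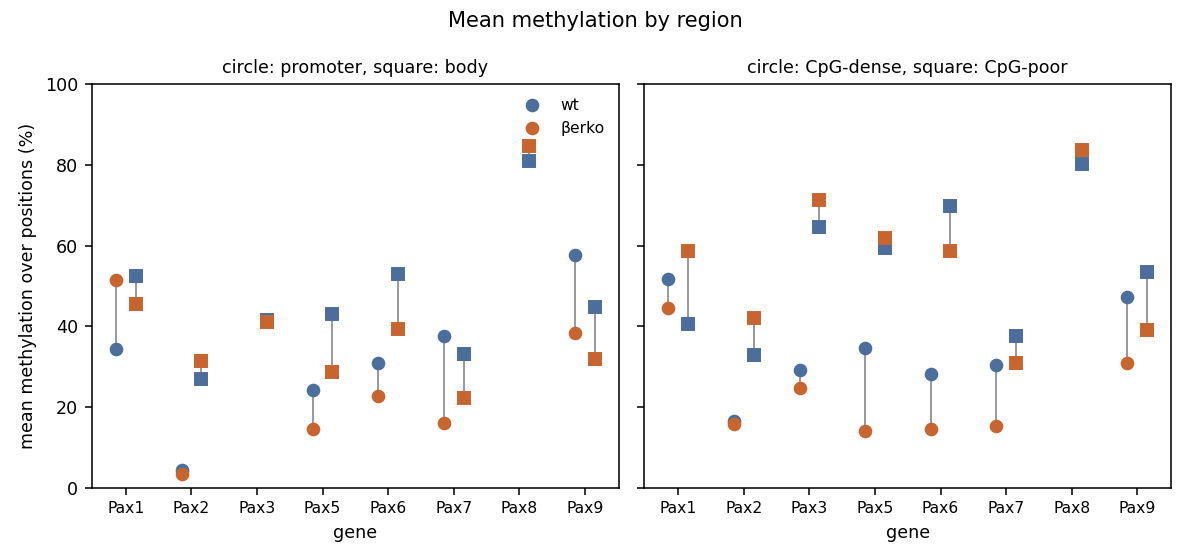
Mean methylation over positions in per cent (y axis) of each Pax gene (x axis) in wt (blue) and βerko (orange) MEFs, for promoters (circles) and bodies (squares) on the left and for CpG-dense (circles) and CpG-poor (squares) positions on the right. Only regions with at least 5 positions are drawn. The CpG-dense mean of Pax5 went from 34.7 to 13.9 %, while its CpG-poor mean was 59.4 and 61.9 %.

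The decrease lay mainly in CpG-dense sequence. A position was called CpG-dense if the 200 bp around it had a GC content of at least 50 % and an observed to expected CpG ratio of at least 0.6. Over the 637 CpG-dense Pax positions methylation went from 32.5 ± 30.4 % in wt to 20.6 ± 26.9 % in βerko MEFs, and 31.4 % fell while 6.59 % rose (200 and 42 positions), against 8.94 and 2.62 % of all CpG-dense positions. Over the 392 CpG-poor positions it was 50.9 ± 35.3 % and 50.5 ± 36.4 %, and 20.2 % fell while 19.4 % rose (79 and 76 positions), against 12.3 and 12.4 % of all CpG-poor positions. Falls and rises were thus balanced in CpG-poor sequence in the sum over the Pax genes, as over all positions, but not gene by gene. Falls exceeded rises in Pax6 (26 and 6), Pax7 (21 and 11) and Pax9 (10 and 2). Rises exceeded falls in Pax2 (25 and 6) and Pax5 (20 and 11), and by smaller numbers in Pax1, Pax3 and Pax8. All common positions had 17.01 and 13.6 % in CpG-dense and 72.2 and 72.3 % in CpG-poor sequence, so CpG-dense Pax positions were more methylated, and CpG-poor Pax positions less methylated, than other positions of their kind in wt MEFs.

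In Pax5 the CpG-dense mean went from 34.7 ± 28.0 % to 13.9 ± 17.8 % (175 positions) and the CpG-poor mean was 59.4 ± 35.2 % and 61.9 ± 36.4 % (70 positions). In Pax7 the CpG-dense mean went from 30.3 to 15.2 % (96 positions) and the CpG-poor mean from 37.6 to 31.0 % (73 positions). Pax6 and Pax9 were lower in both kinds of sequence, with differences of -13.6 and -16.4 points in CpG-dense and -11.1 and -14.4 points in CpG-poor sequence. In Pax1, Pax2 and Pax3 CpG-dense positions had differences of -7.23, -0.85 and -4.50 points, and CpG-poor positions 18.1 (11 positions), 8.95 and 6.79 points.

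**Figure D4:**
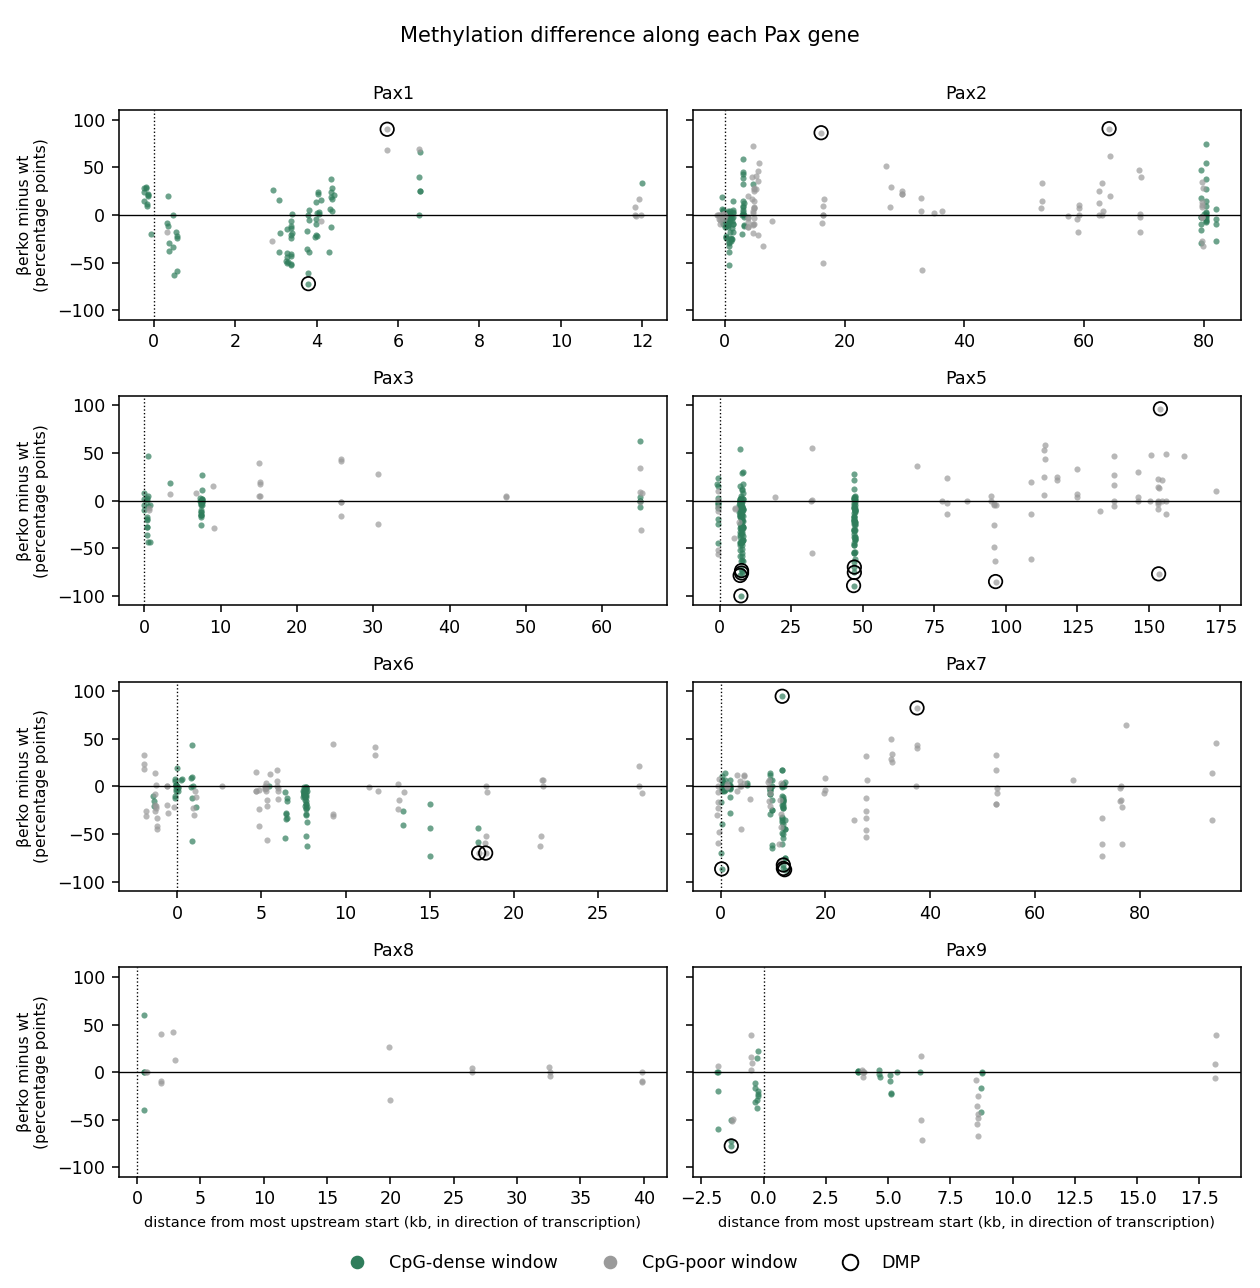
Difference in methylation, βerko minus wt, in percentage points (y axis) against the distance from the most upstream start in kb (x axis) for each position of the 8 Pax genes, with CpG-dense positions in green, CpG-poor positions in grey and DMPs ringed. In Pax5 most falls sit in narrow columns of green points, the 62 and 103 positions described below, while grey points farther along the gene lie on both sides of 0.

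Pax5, which B lymphocytes need to keep their identity, carried 81 of its 93 fallen positions in 2 clusters of CpGs. Joining positions over gaps of at most 500 bp gave a cluster of 103 positions at chr4:44716207-44717520, around internal starts of the gene, with 36.8 ± 27.9 % in wt and 15.7 ± 20.2 % in βerko MEFs. Of these positions 48 fell and 3 rose. A cluster of 62 positions at chr4:44676978-44677563, in intron 5, had 33.1 ± 27.3 % and 9.90 ± 12.1 %, and 33 fell while 2 rose. Part of the intron 5 cluster also lies in the annotated gene Gm12462.

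The other 80 positions of Pax5 had 54.8 ± 36.8 % in wt and 56.7 ± 37.1 % in βerko MEFs, with 12 falls and 21 rises. They include small clusters that changed in opposite directions. That of 7 positions at chr4:44627899-44628481 went from 84.8 ± 11.3 % to 51.2 ± 26.6 %, with 4 falls and no rise. That of 5 positions at chr4:44610795-44611129 went from 50.6 ± 25.8 % to 87.9 ± 14.2 %, with 4 rises and no fall. With each 200 bp bin of Pax5 given the same weight, the mean difference was 0.0896 points, against -14.1 points over positions, so the gene-wide decrease depends on the weight of the CpG clusters. Around any annotated Pax5 start, from 500 bp before to 100 bp after, methylation went from 38.1 ± 28.2 % to 16.1 ± 20.8 % over 96 positions.

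In Pax7 the corresponding cluster lay in intron 4 at chr4:139377202-139378338, with 50.5 ± 33.9 % in wt and 23.4 ± 26.3 % in βerko MEFs over 46 positions, of which 26 fell and 1 rose. Its 8-position stretch printed above had 69.0 ± 34.3 % and 24.2 ± 23.7 %. The first 5 CpGs of this Pax7 stretch had 100, 100, 50, 100 and 87.50 % in wt and 25, 55, 5, 25 and 0 % in βerko MEFs, and the last CpG had 63.64 and 64.52 %. Around the start of Pax7 a cluster of 48 positions at chr4:139387620-139390035 was low in both, with 13.2 ± 22.5 % and 5.15 ± 6.60 %.

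In Pax6, whose loss leaves the eye unformed, a cluster of 36 positions at chr2:105516546-105516763 had 20.2 ± 16.3 % in wt and 6.01 ± 6.28 % in βerko MEFs, and 9 of these fell. The stretch printed above, in intron 7, had 81.4 ± 12.8 % and 44.2 ± 33.6 %. Of its 5 CpGs the second at 105527370 had 97.14 % in wt and 97.18 % in βerko MEFs, and the fourth at 105527375, 5 bp away, had 82.86 and 12.86 %. A further 31 positions of Pax6 at chr2:105513725-105515550 had 78.2 ± 22.5 % and 66.6 ± 32.1 %.

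Pax9 showed both the largest fall of a stretch in the family and a core that was unmethylated in both libraries. The printed upstream stretch, at distances from -1312 to -1244 bp from the start, had 77.3 ± 17.8 % in wt and 17.1 ± 5.30 % in βerko MEFs. A stretch of 7 positions in intron 4 at chr12:57801265-57801381 had 79.3 ± 14.6 % and 39.0 ± 26.0 %. Between them a cluster of 10 positions at chr12:57796526-57796771 had 0.625 ± 1.98 % and 0.572 ± 0.787 %. The upstream stretch also lies in the annotated gene Gm15524, as do 23 of the 60 Pax9 positions in all.

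Pax1, the relative of Pax9, held falls and rises a few kb apart. A stretch of 17 positions, mostly in exon 1, at chr2:147190920-147191064 had 51.2 ± 21.7 % in wt and 20.0 ± 10.0 % in βerko MEFs, and 11 fell while none rose. Its positions at 147191052 and 147191064 lie in an intron. A stretch of 6 positions in exon 4 at chr2:147194167-147194208 had 47.6 ± 29.9 % and 85.5 ± 14.3 %, and 5 rose while none fell. This Pax1 stretch was, among the 57 stretches of the family, the only one whose mean rose by 20 points or more. Its 6 positions had 20, 60, 100, 20, 42.86 and 42.86 % in wt and 89.66, 100, 100, 86.21, 68.42 and 68.42 % in βerko MEFs. With positions joined over gaps of at most 500 bp, the Pax5 cluster at chr4:44610795-44611129 also rose, by 37.3 points in the mean.

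Pax2 kept a low level around its start, where a cluster of 91 positions at chr19:44829341-44831987 had 8.56 ± 10.8 % in wt and 2.47 ± 4.22 % in βerko MEFs, with 13 falls and no rise. Farther into the gene the direction turned. In intron 1 of the longest protein-coding transcript, a cluster of 18 positions at chr19:44833356-44833832 had 38.9 ± 31.7 % and 51.5 ± 25.2 %. In the same intron a cluster of 24 positions at chr19:44835151-44836185, 19 of them in exons of other Pax2 transcripts, had 24.0 ± 19.5 % and 41.4 ± 27.7 %, with 1 fall and 11 rises. Near the end of the gene 33 positions at chr19:44909990-44910902 had 20.1 ± 25.2 % and 27.1 ± 29.4 %.

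Pax3, which marks the dorsal neural tube and migrating muscle precursors, was lower at its start, while its clusters in intron 4 differed in both directions. A cluster of 20 positions at its start, chr1:78192991-78193784, had 31.1 ± 22.3 % in wt and 20.6 ± 26.8 % in βerko MEFs, with 5 falls and 1 rise. In intron 4 the largest cluster, 23 positions at chr1:78186176-78186398, was low in both libraries with 13.3 ± 20.2 % and 9.11 ± 21.0 %, 16 positions being lower and 6 higher. Clusters of 5 positions farther along intron 4 had 71.5 ± 19.4 % and 88.9 ± 13.0 % at chr1:78178559-78178622 and 68.3 ± 28.0 % and 81.8 ± 9.53 % at chr1:78167900-78167973, where 3 of the 5 positions were lower. Pax8 had no stretch of at least 5 positions with gaps of at most 100 bp. Of its 21 positions 18 also lie in the annotated gene Gm13415, and the other 3 had a mean difference of -6.30 points.

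Of the 57 stretches in 7 genes 14 fell, 1 rose and 42 stayed within 20 points in the mean. Of the 39421 stretches over all common positions, which were not matched for wt level, 7.74 % fell and 1.99 % rose. Stretches that fell were found in Pax7 (4 of 10 stretches), Pax1 (3 of 8), Pax6 (3 of 9), Pax5 (2 of 7) and Pax9 (2 of 5), and were absent among those of Pax2 (13) and Pax3 (5). Both libraries were below 20 % in 17 stretches, of which 9 lay in Pax2.

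CpGs that were read on both strands gave a view of the error within a library, since each strand is read separately. Among the 89 such CpGs in the Pax genes the median gap between strands was 8.55 points in wt and 4.64 points in βerko MEFs, and gaps of at least 20 points occurred at 24 CpGs in wt and 9 in βerko MEFs. Over the 70667 such CpGs of all common positions the median gaps were 1.80 and 1.35 points. These gaps are not compared at like levels, as 43.5 % of all Pax positions but 17.2 % of all common positions lay between 20 and 80 % in wt MEFs. The difference between genotypes had r = 0.64 between strands across the 89 CpGs, where strands of a CpG share the cells and the library. A fall on either strand was seen at 38 CpGs and on both at 19 (42.7 and 21.3 %, against 14.996 and 7.73 % over all such CpGs), of which 11 were in Pax5. A rise on either strand was seen at 12 and on both at 3 (13.5 and 3.37 %, against 7.47 and 2.90 %), so that rises on both strands were near the background. At 1 CpG, in Pax5, the strands went in opposite directions by at least 20 points each.

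A position was called a DMP if each library covered it with more than 4 reads and it was less than 20 % methylated in one genotype but more than 80 % in the other. Those methylated in wt are called hypomethylated, and those methylated in βerko MEFs hypermethylated. The Pax genes held 17 hypomethylated DMPs, 1.65 % of their positions against 0.7 % of all common positions, and 6 hypermethylated DMPs, 0.58 % against 0.237 %. Without Pax5 the shares were 1.02 and 0.64 %. A two-sided Fisher's exact test was run on the reads with Benjamini-Hochberg adjustment over all 826937 positions, so that it contrasts these libraries and not the genotypes. An adjusted p of 0.05 or less was reached by 15 of the 17 hypomethylated DMPs, 1.46 % of Pax positions against 0.642 % of all, and by all 6 hypermethylated DMPs, 0.58 % against 0.212 %. The DMPs were selected for a large difference in these same reads, so passing depends mainly on depth and adds no independent support. Over the series 5313 of 5787 hypomethylated and 1755 of 1960 hypermethylated DMPs passed.

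Pax5 held 9 of the hypomethylated DMPs. The deepest, at 44677563 at the end of the printed stretch, had 30 of 30 reads methylated in wt and 11 of 102 (10.8 %) in βerko MEFs (Fisher's exact test, adjusted p = 5.1e-18). Its exact 95 % intervals were 88.4 to 100 % and 5.51 to 18.5 %. A pair of DMPs in the same intron 5 cluster, at 44677291 and 44677293, had 13 and 12 of 14 wt reads and 12 and 11 of 69 βerko reads methylated. In the cluster at the internal starts, the DMPs at 44716721 and 44716723 had 14 and 13 of 16 wt reads and 8 and 3 of 57 βerko reads methylated (Fisher's exact test, adjusted p = 1.3e-05 and 5.8e-07). The 4 other hypomethylated Pax5 DMPs rested on 5 to 14 wt reads, and that at 44627929 did not pass (Fisher's exact test, adjusted p = 0.12).

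Pax7 held 4 hypomethylated DMPs. Neighbours in intron 4 at 139377459 and 139377469 had 16 of 17 and 16 of 16 wt reads methylated, against 5 and 11 of 63 βerko reads (Fisher's exact test, adjusted p = 2.8e-09 and 1.2e-07). A DMP in exon 1 of Pax7, at 139389237 and 208 bp from the start, had 13 of 15 and 0 of 18 reads methylated (Fisher's exact test, adjusted p = 2.9e-05). It stood apart from its surroundings, as the 9 other positions within 100 bp had 8.12 % in wt and 3.35 % in βerko MEFs.

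Pax6 had DMPs at 105526956 (14 of 17 wt and 5 of 40 βerko reads) and 105527375 (29 of 35 and 9 of 70 reads, Fisher's exact test, adjusted p = 5.0e-10), both in intron 7. Pax9 had a DMP at 57791457, at -1297 bp from the start, with 41 of 43 wt reads (95.3 %, exact interval 84.2 to 99.4 %) and 10 of 56 βerko reads (17.9 %, 8.91 to 30.4 %) methylated (Fisher's exact test, adjusted p = 4.0e-13). The hypomethylated DMP of Pax1, at 147191460 in intron 1, rested on 9 and 6 reads and did not pass (Fisher's exact test, adjusted p = 1). Pax2, Pax3 and Pax8 had no hypomethylated DMP.

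All 6 hypermethylated DMPs lay in introns, 1 of them in CpG-dense sequence, and 4 had other covered positions within 100 bp. The sequences around the DMPs of Pax5, Pax2 and Pax1 with the lowest p are printed because 40 bp on either side show how few CpGs are near. They lie at chr4:44570277-44570357 (Pax5, intron 8), chr19:44894635-44894715 (Pax2, intron 7) and chr2:147193355-147193435 (Pax1, intron 2), again on the plus strand with covered CpGs in capitals.
Pax5: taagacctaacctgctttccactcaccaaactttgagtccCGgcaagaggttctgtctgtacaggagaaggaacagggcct
Pax2: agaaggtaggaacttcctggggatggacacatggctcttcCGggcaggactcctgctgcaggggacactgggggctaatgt
Pax1: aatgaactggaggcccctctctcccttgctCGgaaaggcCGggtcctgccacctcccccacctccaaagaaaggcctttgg

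The hypermethylated DMP of Pax5, at 44570317, had 2 of 59 wt reads (3.39 %, exact interval 0.41 to 11.7 %) and 64 of 64 βerko reads methylated (94.4 to 100 %), the lowest adjusted p of the family (Fisher's exact test, 1.2e-29). That of Pax2 at 44894675 had 0 of 27 wt reads, which allows a share of up to 12.8 % by the exact interval, and 29 of 32 βerko reads methylated (Fisher's exact test, adjusted p = 2.8e-11). Pax2 had a further DMP at 44846628, with 3 of 22 and 13 of 13 reads. That of Pax1 at 147193395 had 1 of 30 and 42 of 45 reads methylated (Fisher's exact test, adjusted p = 1.1e-13), and the other position within 100 bp went from 6.90 to 75.6 %. In Pax7 the DMPs were at 139351960 (2 of 23 and 31 of 34 reads) and at 139377689 (0 of 5 and 18 of 19 reads), the latter inside the intron 4 cluster whose other positions were mostly lower in βerko MEFs.

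**Figure D5:**
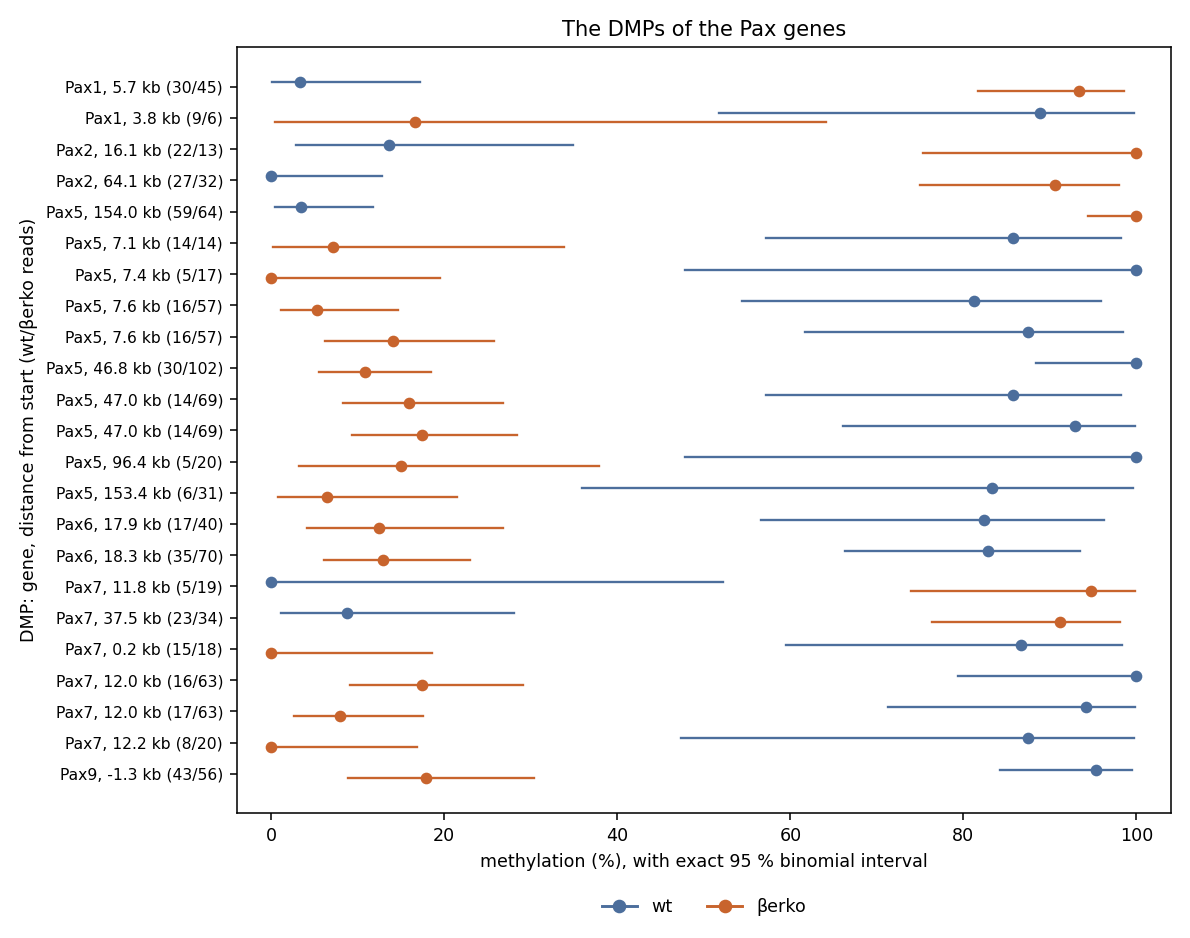
Methylation in per cent (x axis) of the 23 DMPs of the Pax genes in wt (blue) and βerko (orange) MEFs, with exact 95 % binomial intervals from the reads as lines, and on the y axis the gene, the distance from the most upstream start and the reads in wt and βerko MEFs. The intervals of the libraries overlap at the Pax1 DMP with 9 and 6 reads and at no other DMP. DMPs were selected by these percentages, so the separation largely follows from the selection.

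Of the 23 DMPs 21 lay in introns of the longest protein-coding transcript, 2 of which, at the internal Pax5 starts, are in an exon of another transcript. Introns and exons are numbered along that longest transcript. CpG-dense sequence held 13 of the 17 hypomethylated and 1 of the 6 hypermethylated DMPs, where the shares over all such DMPs of the series were 56.4 and 11.5 %. At hypomethylated DMPs the median depth was 15 reads in wt and 56 in βerko MEFs, and 15 of 17 were deeper in βerko MEFs. There the methylated state was the less deeply read. At hypermethylated DMPs the medians were 25 and 33 reads, and 5 of 6 were also deeper in βerko MEFs, here the methylated state. The part of this depth gap in the calls was not tested. Over all hypomethylated DMPs the medians were 21 and 47 reads. Within 100 bp of the 17 hypomethylated DMPs the other positions had a median difference of -26.7 points, and they fell in the mean at 11 of the 17. Other positions were covered near 4 of the 6 hypermethylated DMPs, with a median difference of 31.0 points, and rose in the mean at 2. Such neighbours can share reads with the selected DMPs and include other DMPs, so they are no independent support. The same values for all DMPs of the series were not computed.

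Oestrogen receptors bind pairs of the word GGTCA, in opposite orientation. The word GGTCA or its complement TGACC occurred within 100 bp of 7 of the 17 hypomethylated and 3 of the 6 hypermethylated DMPs, 25.8 % of all Pax positions and 28.5 % of all common positions. GGTCA followed by TGACC after 2 or 3 other bases was found near none of the 1029 Pax positions and near 0.063 % of all common positions.

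Genes that Pax factors work with were examined alongside. The 9 partner genes were Six2, Six4, Six5, Eya1 to Eya4, Dach1 and Dach2. They encode transcription factors and cofactors that act with Pax proteins in kidney, muscle and sense organs. None fell or rose by 20 points in the mean. The median difference was -0.35 points, with 5 of the 9 lower in βerko MEFs. Single partners differed widely, from -17.1 to 11.0 points, against -15.6 to 3.77 points in the Pax genes. Of 16 known targets of Pax factors 14 had at least 5 positions, with a median difference of -7.35 points, 12 of the 14 lower in βerko MEFs, 1 fall and no rise. Over the 18253 annotated genes with at least 5 positions 62.1 % were lower, 3.63 % fell and 0.751 % rose, with a median of -0.40 points. The gene that fell was Nkx3-2, a repressor in cartilage formation downstream of Pax1 and Pax9, with 64.9 % in wt and 33.7 % in βerko MEFs over 77 positions, 51 of them falls and 5 of them hypomethylated DMPs.

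The disrupted gene itself, Esr2, had 54.0 ± 40.8 % in wt and 44.8 ± 44.2 % in βerko MEFs over 32 positions, which does not test the knock-out. Of 7 fibroblast markers 4 had covered promoter positions. Fn1 (24 positions), Vim (2) and Col1a1 (1) were at or below 0.38 % in both libraries, and Col1a2 had 93.6 % in wt and 48.3 % in βerko MEFs over 5 positions. Of the markers of other cell types, Krt5 had 91.3 and 94.98 % (3 positions), and promoters of the other 6 were not covered. The cell makeup of the cultures, and any part of it in the Pax differences, was not tested.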

How the data were processed

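RRBS was done on 1 pooled DNA library each of wt and βerko MEFs. DNA was cut with MspI, size-selected, bisulfite-converted, amplified by PCR and sequenced on a Genome Analyser IIx. The authors mapped reads with the Genomatix Mining Station, whose version is not given in the sources used here, to mm9. CASAVA 1.4 is listed in the submitters' processing notes. In the common table the authors deposited the percentage of methylated reads at 826937 positions without depth, and in their DMP tables they deposited read counts beside that percentage. Bisulfite does not separate 5-methyl- from 5-hydroxymethylcytosine, and PCR copies are not removed, so intervals cover counting error only. Columns of the authors' annotation of DMPs to genes were used for an alternative only.

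Positions were assigned to GENCODE vM1 gene models on NCBIM37, and sequences were read from that genome. Means, shares and differences (βerko minus wt) were computed with Python 3.11.15, pandas 2.3.3 and SciPy 1.17.1. Fisher's exact test was used at DMPs with more than 4 reads in both libraries, all other positions entering the adjustment with p = 1, and it was tested on simulated data. Intervals at DMPs are Clopper-Pearson, and those of shares of positions Wilson. No test between genotypes was possible with 1 library each. The text names all 8 members, their DMPs, their stretches with the largest fall or rise, partner or target genes that changed by at least 20 points, and Esr2. Other clusters, the CpG-dense class, the strand comparison and the values without Pax5 were chosen after the values were seen. The members and lists were chosen with earlier results of these data known. Positions within another annotated gene were kept, and an alternative left them out. Some members of the partner, target and marker lists are not reported here, and the counts leave them out.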

Additional observations from a re-analysis of the deposited data

How the results depend on the processing

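With 1 library per genotype no value has a replicate check, and depth outside DMPs is unknown. No paired analysis was possible because each genotype has 1 library. Of 86 alternatives over 14 results 74 left the value within its limit (5 points for a mean, 1.5 times for a count) and 12 moved it. The 17 hypomethylated DMPs became 3 with at least 20 reads, 2 with limits of 10 and 90 %, and 8 without Pax5 (added after seeing the data). The mean difference of Pax5 was 0.0896 over 200 bp bins, that of Pax7 -3.87 and that of Pax9 -5.49 as medians over positions, and that of Pax8 -6.30 without positions in other genes. Over 200 bp bins the signs of Pax1 (0.48) and Pax3 (1.41) also turned. Fallen positions numbered 177 at 30 points and 79 at 50 points. Risen positions numbered 182 at 10 points, 71 at 30 points and 24 at 50 points. At each of these limits the Pax share was above that of all positions in both directions (at 50 points 7.68 against 2.92 % fell and 2.33 against 1.47 % rose). The positions were not matched for wt level. The cause was not tested.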
